A study of Mus musculus with 10 samples.

Results

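The genes described here are 44 cyclins, mitotic kinases, checkpoint proteins, kinetochore proteins, kinesins and spindle proteins, chosen by name for their role in cell division out of 21849 genes in the count table. The choice was made with earlier results of these data known. Of these 44, 43 had enough counts to be tested, among 12929 genes tested in all. The exception was Prc1, which organises the central spindle. It was listed at 0 in every tumour, and all of its annotated exonic bases lie inside the body of Rccd1 on the same stretch of chromosome 7. Kif18b, also wholly inside another gene, had 13084 counts over all tumours. The cause of the 0 was not tested.

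Tumours came from CT26, a colon carcinoma line of the mouse, placed subcutaneously in BALB/c animals aged 5 weeks. Animals ate normal food, or food matched in calories but lacking arginine, from 1 week before the cells were injected. Tumours were taken on day 20, and total RNA of 5 arginine-deficient and 5 normal-diet tumours was sequenced, with no other treatment or genotype named for either group. The libraries held 12013178 to 31530123 counts. Each library holds whole tumour, so a lower level of a mitotic transcript can mean fewer dividing cells or less of that RNA per dividing cell, and the data cannot tell these apart.

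Cell division is driven by cyclin B bound to the kinase CDK1, which Cdc25 phosphatases switch on and which the anaphase-promoting complex ends by destroying the cyclin through its activator Cdc20. Kinetochores, built on the centromeric histone variant CENP-A, attach chromosomes to spindle microtubules, and the checkpoint kinases and Mad2 hold back Cdc20 until every chromosome is attached. Most of these genes are transcribed together late in the cycle. In their promoters, a CCAAT box, bound by NF-Y, commonly lies upstream of a cell cycle homology region with the letters TTTGAA, bound by the MuvB complex, which recruits B-MYB and FOXM1.

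Both motifs could be read in the promoters of many members. The 5 printed next belong to members with both motifs for which values per tumour are given, taken by smallest p in the diet comparison. Windows ran from 250 bases before to 50 bases after the annotated start, from RefSeq on GRCm38.p6, and were present for 36 of the 44 members. Printed are the 200 bases before the start, 5′ to 3′ on the gene's own strand, with CCAAT or TTTGAA in capitals on either strand (ATTGG and TTCAAA are the reverse complements). The regions are chr9:70421555-70421754 (Ccnb2, minus strand), chr5:30666686-30666885 (Cenpa, plus strand), chr7:135716380-135716579 (Mki67, minus strand), chr4:118437344-118437543 (Cdc20, minus strand) and chr10:69352913-69353112 (Cdk1, minus strand). The last line gives the first 24 transcribed bases of Ccnb2 (chr9:70421531-70421554), since they hold its TTTGAA nearest the start.
Ccnb2: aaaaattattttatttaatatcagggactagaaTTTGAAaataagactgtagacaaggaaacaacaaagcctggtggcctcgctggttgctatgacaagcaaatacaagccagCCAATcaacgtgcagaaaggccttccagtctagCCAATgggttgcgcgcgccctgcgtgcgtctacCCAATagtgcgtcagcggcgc
Cenpa: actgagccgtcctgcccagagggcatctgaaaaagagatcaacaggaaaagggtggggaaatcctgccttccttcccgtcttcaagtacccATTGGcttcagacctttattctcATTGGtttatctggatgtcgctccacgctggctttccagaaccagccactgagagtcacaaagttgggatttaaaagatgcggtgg
Mki67: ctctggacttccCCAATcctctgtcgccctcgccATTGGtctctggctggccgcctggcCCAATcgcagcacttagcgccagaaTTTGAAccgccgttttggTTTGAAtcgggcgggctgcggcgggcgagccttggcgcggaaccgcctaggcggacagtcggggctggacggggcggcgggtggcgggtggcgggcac
Cdc20: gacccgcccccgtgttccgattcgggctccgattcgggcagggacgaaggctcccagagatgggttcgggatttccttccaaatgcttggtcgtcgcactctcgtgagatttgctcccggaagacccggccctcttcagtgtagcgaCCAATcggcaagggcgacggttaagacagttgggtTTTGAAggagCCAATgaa
Cdk1: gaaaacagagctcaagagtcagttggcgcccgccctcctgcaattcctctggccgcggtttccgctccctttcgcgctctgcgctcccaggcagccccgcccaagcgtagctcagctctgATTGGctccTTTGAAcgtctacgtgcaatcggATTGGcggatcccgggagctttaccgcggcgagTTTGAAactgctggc
Ccnb2 after the start: ggtaTTTGAAtcgcggaccgggcg

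In Ccnb2 there were 3 CCAAT boxes in the same orientation, beginning at positions -87, -54 and -21 and so 33 bases apart, followed by TTTGAA at positions 5 to 10 after the start. Cenpa has CCAAT on the other strand at -109 and -86 and TTTGAA at positions 17 to 22, past the printed part. In Cdc20 the TTTGAA at -18 lies between CCAAT boxes at -53 and -8. Over the 36 members, CCAAT was found in 26 (72.2%) and TTTGAA in 27 (75%), each on either strand and in any of a gene's annotated windows. Among all 27025 genes with such a window the shares were 41.1% and 20.2%, and among the 10136 of them tested here 43.03% and 14.8%. Both motifs were present in 22 members (61.1%) against 6.25% of tested genes, while the related letters TTCGAA were found in 4 members. No CCAAT match of a member overlapped another motif, and 5 members had no match of any of the 3 motifs. A match is a run of letters and not a measured binding site.

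Per kilobase of annotated exon, the level of the members spanned a wide range. The highest, as the mean over all 10 tumours, were Cdc20 at 82.4, Ube2c at 74.7, Top2a at 72.5 and Foxm1 at 68.7 CPM per kilobase, where CPM is the count scaled to 1000000 per library after TMM normalisation. The lowest were Kif18a at 6.42, Kif14 at 4.74 and Kif11, the bipolar spindle motor, at 1.54. Ube2c, the ubiquitin-conjugating enzyme of the anaphase-promoting complex, has 62.8% of its exonic bases inside the body of the muscle gene Tnnc2. Kif18b lies wholly inside Gm26668, and Kif22 has 58.6% of its exonic bases inside Gm31749. Counts of these 3 genes are therefore uncertain. The overlap is with the whole body of the neighbour, introns included, and its effect on counting was not tested. Without TMM scaling, Tnnc2 stood at 0 to 3.25 CPM over the tumours and Ube2c at 147 to 221 CPM.

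The comparison of the diets asks whether mitotic transcripts of the tumour differed when arginine was missing from the food. No member passed the test over all genes on either side (edgeR quasi-likelihood, adjusted p under 0.05), where 0.0541% of all tested genes did, while DESeq2 called 1 member, where 0.896% of its tested genes were called, and limma voom with sample weights 2, where 2.88% were. Of the 43 tested members 39 had a log2 fold change below 0, against 49.7% of all tested genes, and the median over members was -0.15, against 0.00 over all genes. At an unadjusted p under 0.05 there were 7 lower members and 0 higher, where 3.19% of tested genes were lower and 3.54% higher at that level, 6.74% together. The 7 were Ccnb2, Kif2c, Spc24, Ndc80, Cenpa, Knstrn and Aurkb, of which 4 are kinetochore or centromere proteins. The members were measured in the same libraries and were chosen with earlier results of these data known. These counts therefore describe the list and are no test of it.

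**Figure D1:**
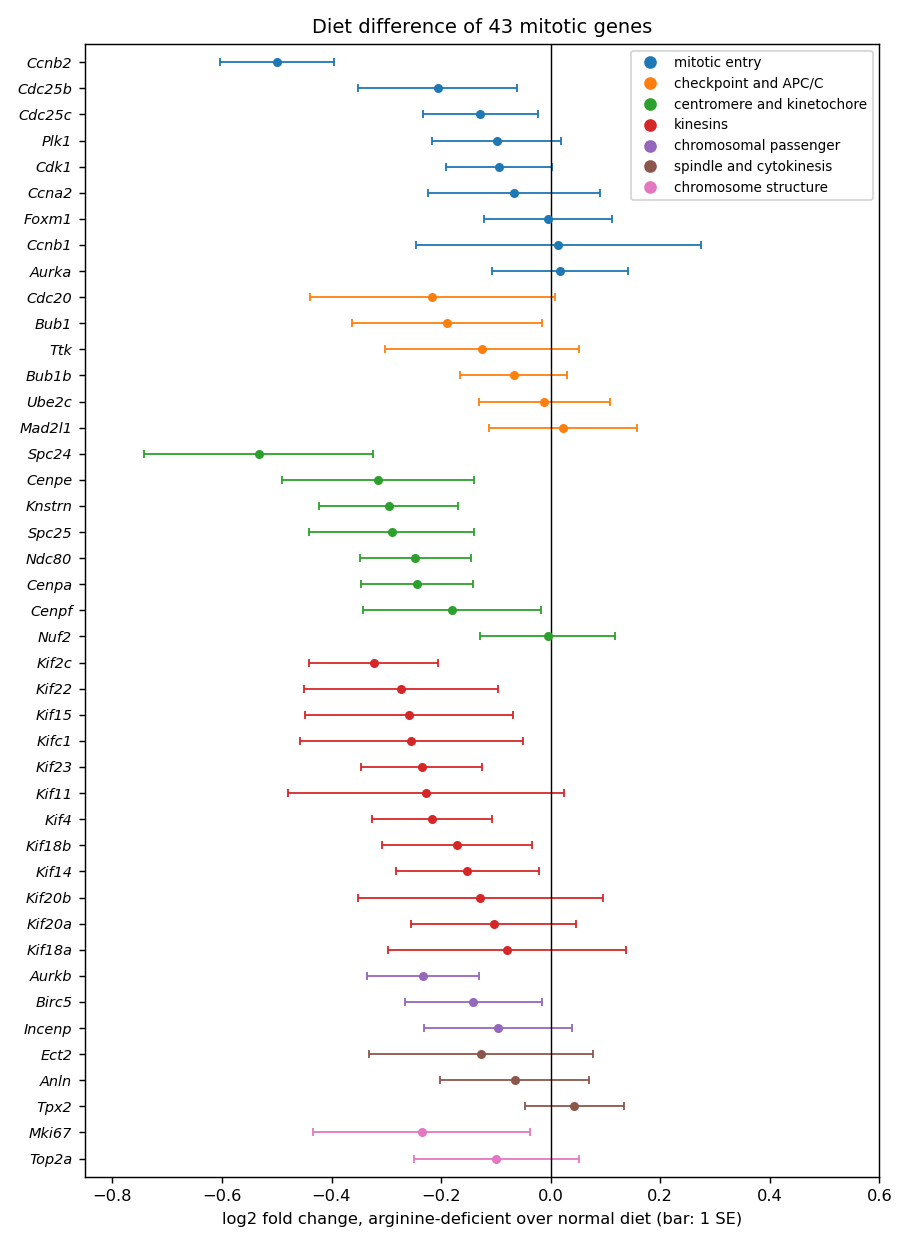
Log2 fold change of each of the 43 tested members, arginine-deficient over normal diet, with 1 standard error to each side (n = 5 tumours per diet), coloured by role. 39 points lie left of 0, Spc24 and Ccnb2 farthest, and Tpx2 lies farthest right at 0.04.

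Among the genes of mitotic entry, the B-type cyclin gene Ccnb2 (ENSMUSG00000032218.7, chromosome 9, 70407692 to 70421547, minus strand of mm10) had the smallest p of all members. It stood at 58.0, 54.7, 67.1, 68.6 and 64.3 CPM in arginine-deficient tumours 1 to 5, and at 96.5, 84.98, 92.6, 79.5 and 88.7 CPM in normal-diet tumours 1 to 5. Every arginine-deficient tumour lay below every normal-diet tumour, the one member for which this was so, where 0.812% of tested genes showed that order. The means were 62.5 ± 5.97 and 88.5 ± 6.61 CPM (SD, n = 5 each), which gave a log2 fold change of -0.50 ± 0.10 (SE, as for every fold change that follows) and an edgeR adjusted p of 0.163. DESeq2 called Ccnb2 (adjusted p = 0.000601), as did limma voom with sample weights (adjusted p = 0.00914). With each library's GC and length slopes as covariates the adjusted p by edgeR was 0.0413, with 0.526% of genes called. The other edgeR fits did not call Ccnb2. Its adjusted p by edgeR was 0.732 with a block for the replicate number and 0.239 with that block and the slopes. Without the 3 libraries richest in muscle it was 0.115. Leaving out any single library, its log2 fold change ran from -0.54 to -0.46 and its adjusted p by edgeR from 0.0784 to 0.544.

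The other B-type cyclin gene, Ccnb1 (chromosome 13, 100778650 to 100786570), stood at 70.2, 63.1, 168, 66.7 and 66.8 CPM in arginine-deficient tumours 1 to 5 and at 78.3, 103, 80.9, 95.2 and 73.2 CPM in the normal-diet tumours. Arginine-deficient tumour 3 lay above all the others, while the other 4 arginine-deficient tumours lay below every normal-diet tumour. With all libraries the log2 fold change was 0.01 ± 0.26 (edgeR adjusted p = 0.999). Without arginine-deficient tumour 3 it was -0.36 ± 0.11 (edgeR adjusted p = 0.275, with 0.123% of tested genes called). That tumour also had the most mitochondrial counts (9.97%, against 1.67% to 4.44% in the other 9) and the most skeletal muscle transcripts. Without the 3 libraries richest in muscle, that tumour among them, the log2 fold change of Ccnb1 was -0.33 ± 0.14. With muscle and mitochondrial genes removed from the table it was 0.013 ± 0.26. Removing those genes leaves the counts of Ccnb1 unchanged and alters only the scaling and the estimates of spread. That fit therefore cannot test the part of muscle.

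Cdk1, the kinase that both cyclins activate, had an edgeR adjusted p of 0.975. Its level was 171, 163, 151, 193 and 179 CPM in arginine-deficient tumours and 200, 172, 189, 182 and 171 CPM in normal-diet tumours (log2 fold change -0.09 ± 0.10). Arginine-deficient tumours 1, 2 and 3 lay at or below the lowest normal-diet tumour and the other 2 inside the normal-diet range. Within each tumour the count of Ccnb2 was 0.340, 0.336, 0.443, 0.356 and 0.359 times that of Cdk1 on the deficient diet and 0.482, 0.494, 0.490, 0.436 and 0.518 times on the normal diet. Only arginine-deficient tumour 3 reached the normal-diet range. The log2 ratio differed by -0.41 (exact permutation, two-sided, p = 0.0159, or 0.0476 after Benjamini-Hochberg adjustment over 3 ratios, where the smallest p the design allows is 0.00794). The ratio of Ccnb2 to Ccna2, the A-type cyclin of S phase and early mitosis, differed by -0.43 (exact permutation p = 0.0476, adjusted p = 0.0714), and that to Ccnb1 by -0.41 (exact permutation p = 0.159, adjusted p = 0.159). Ccnb2 entered these ratios with its difference already known, so they describe that gene beside its partners and are no independent support. The adjusted p of the ratio to Cdk1 was 0.0714 without normal-diet tumour 1, 3 or 5 and 0.0595 without normal-diet tumour 2. Without the 3 libraries richest in muscle the log2 ratio differed by -0.52, with an exact permutation p of 0.0286 (adjusted p = 0.0857), the smallest that 3 against 4 libraries allow.

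**Figure D2:**
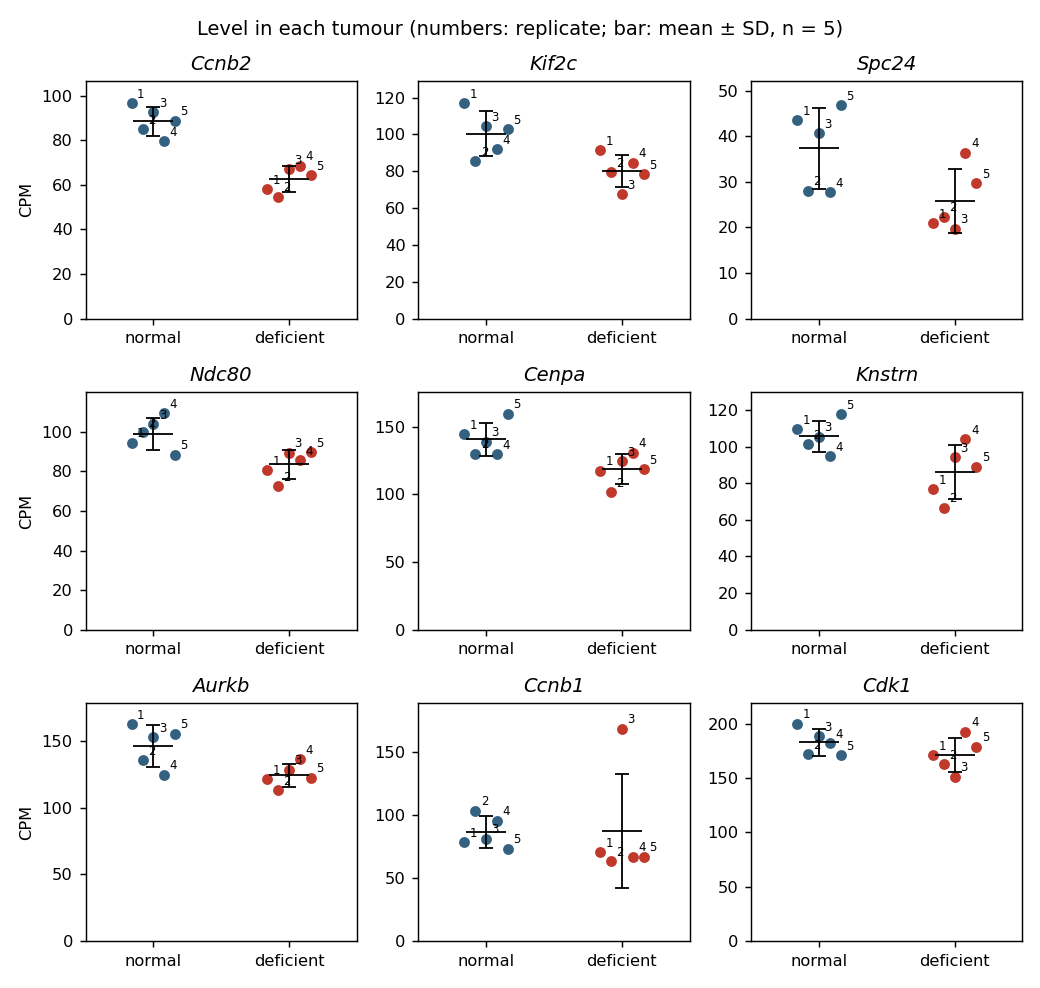
CPM of 9 members in each tumour by diet, with replicate numbers, mean and SD (n = 5 each). Ccnb2 is the only one whose diets do not overlap, and Ccnb1 in arginine-deficient tumour 3 stands at 168 CPM, above the other 9 tumours.

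The other entry genes had log2 fold changes between -0.21 and 0.02. Plk1, a kinase that promotes mitotic entry, stood at 85.1, 72.4, 90.4, 92.1 and 75.3 CPM in arginine-deficient tumours and 102, 81.3, 87.8, 75.4 and 98.3 CPM in normal-diet tumours (log2 fold change -0.10 ± 0.12). Ccna2 stood at 204, 147, 251.8, 189 and 211 CPM against 194, 252.04, 215, 231 and 159 CPM (log2 fold change -0.07 ± 0.16). For both genes each diet held high and low tumours. Foxm1, the transcription factor that turns on many mitotic genes, stood at 429, 381, 329, 387 and 446 CPM against 432, 343, 442, 376 and 386 CPM, with nearly equal means (log2 fold change -0.01 ± 0.12). The phosphatase genes Cdc25b and Cdc25c were at -0.21 ± 0.14 and -0.13 ± 0.10 on the log2 scale, and the centrosomal kinase gene Aurka at 0.02 ± 0.12. Over the 9 genes of this group, 7 were below 0 and the median was -0.09.

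All 8 centromere and kinetochore genes had a log2 fold change below 0, with a median of -0.27, and none passed over all genes. Spc24 and Spc25, Ndc80 and Nuf2 encode the subunits of the NDC80 complex, the part of the kinetochore that grips microtubules. Spc24 (chromosome 9, 21755442 to 21760303) stood at 20.9, 22.3, 19.8, 36.4 and 29.7 CPM in arginine-deficient tumours and at 43.5, 28.1, 40.7, 27.7 and 46.9 CPM in normal-diet tumours. Arginine-deficient tumours 1, 2 and 3 lay below the whole normal-diet range and the other 2 inside it (log2 fold change -0.53 ± 0.21, edgeR adjusted p = 0.647). Ndc80 (chromosome 17, 71496100 to 71526857) stood at 80.5, 72.3, 89.3, 85.5 and 89.5 CPM against 94.3, 99.6, 104, 109 and 88.3 CPM. Normal-diet tumour 5 alone overlapped the deficient diet (log2 fold change -0.25 ± 0.10, edgeR adjusted p = 0.677). Spc25 was at -0.29 ± 0.15 (edgeR adjusted p = 0.802) and was called by limma voom with sample weights (log2 fold change -0.41, adjusted p = 0.0465). Nuf2, although a partner in the same complex, had a log2 fold change of -0.01 ± 0.12.

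Cenpa (chromosome 5, 30666777 to 30674830), which encodes the histone variant of centromeres, stood at 118, 102, 125, 131 and 118 CPM in arginine-deficient tumours and 144, 130.1, 139, 129.9 and 159.6 CPM in normal-diet tumours. Only arginine-deficient tumour 4, at 131 CPM, reached into the normal-diet range (log2 fold change -0.24 ± 0.10, edgeR adjusted p = 0.688). Knstrn (chromosome 2, 118814003 to 118853957), a spindle protein also called kinastrin, stood at 76.7, 66.6, 94.1, 104 and 89.0 CPM against 109, 101, 105, 94.8 and 118 CPM. Here again arginine-deficient tumour 4 alone lay inside the normal-diet range (log2 fold change -0.30 ± 0.13, edgeR adjusted p = 0.700). Cenpe, a kinetochore motor, and Cenpf, a large kinetochore-associated protein, were at -0.32 ± 0.18 and -0.18 ± 0.16 on the log2 scale.

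All 12 kinesin genes were below 0, with a median of -0.22. Kif2c (chromosome 4, 117159639 to 117182639), which takes microtubules apart at the kinetochore, stood at 91.3, 79.3, 67.5, 84.5 and 78.4 CPM in arginine-deficient tumours and at 117, 85.4, 105, 91.9 and 103 CPM in normal-diet tumours. Only arginine-deficient tumour 1 reached into the normal-diet range, just above normal-diet tumour 2 (log2 fold change -0.32 ± 0.12, edgeR adjusted p = 0.589). Kif23, a motor of the central spindle, was at -0.24 ± 0.11 and Kif4, a motor on chromosome arms, at -0.22 ± 0.11, with edgeR adjusted p of 0.749 and 0.792. The remaining 9 kinesins ran from -0.27 (Kif22) to -0.08 (Kif18a), with standard errors of 0.13 to 0.25. Kif11 averaged only 11.5 CPM and had a log2 fold change of -0.23 ± 0.25.

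Of the chromosomal passenger complex, which corrects faulty attachments, the kinase gene Aurkb (chromosome 11, 69045647 to 69051664) stood at 122, 114, 129, 137 and 123 CPM in arginine-deficient tumours and 163, 136, 153, 125 and 156 CPM in normal-diet tumours. Normal-diet tumours 2 and 4 overlapped the deficient range (log2 fold change -0.23 ± 0.10, edgeR adjusted p = 0.709). Birc5, which encodes survivin, stood at 89.6, 74.8, 104, 90.4 and 97.2 CPM against 107, 91.8, 94.0, 87.7 and 122 CPM (log2 fold change -0.14 ± 0.12). The scaffold gene Incenp was at -0.10 ± 0.14.

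The checkpoint genes and those of the anaphase-promoting complex had a median log2 fold change of -0.10 over 6 genes, with 5 below 0. Cdc20 stood at 134, 143, 95.9, 205 and 134 CPM in arginine-deficient tumours and 190.3, 118, 157, 125 and 238 CPM in normal-diet tumours, with wide overlap (log2 fold change -0.22 ± 0.22). The kinase family genes Bub1, Ttk and Bub1b had -0.19, -0.13 and -0.07, Ube2c -0.01 and Mad2l1, the checkpoint inhibitor of Cdc20, 0.02. Among the spindle and cytokinesis genes, Ect2 and Anln had -0.13 and -0.07 and Tpx2, an activator of Aurora A, 0.04.

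The common proliferation markers Top2a and Mki67 overlapped between diets. Top2a, the topoisomerase that untangles chromosomes, stood at 621, 496, 713, 703 and 622 CPM in arginine-deficient tumours and 647, 798, 683, 760.4 and 493 CPM in normal-diet tumours (log2 fold change -0.10 ± 0.15, edgeR adjusted p = 0.998). Mki67, which encodes the Ki-67 antigen, stood at 850.1, 433, 512, 547 and 469 CPM against 603, 804, 729.7, 696 and 477 CPM (log2 fold change -0.24 ± 0.20, edgeR adjusted p = 0.954). Arginine-deficient tumour 1 held the highest Mki67 of all 10 tumours, and without it the log2 fold change was -0.44.

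The level of the members also varied from tumour to tumour within a diet. Relative to the mean of the normal-diet tumours, the median of the 43 genes was -0.10, -0.37, -0.10, -0.09 and -0.20 on the log2 scale in arginine-deficient tumours 1 to 5. In normal-diet tumours 1 to 5 it was 0.04, 0.01, 0.06, 0.04 and -0.16. Normal-diet tumour 5 therefore lay within the deficient range and the other 4 above it. Arginine-deficient tumour 2 had 1 member above the normal-diet mean, Incenp, whereas tumour 3 had 21.

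Within a tumour the members divided by the base composition of their transcripts. The 21 members with lower GC content in the longest transcript (38.2% to 46.6%, Ccnb1 and Top2a among them) and the 22 with higher GC (46.9% to 57.0%, Cdc20 and Aurkb among them) parted in several tumours. In arginine-deficient tumour 3 the lower-GC members had a median of 0.19 and the higher-GC members -0.29. In normal-diet tumour 2 the medians were 0.26 and -0.12 and in normal-diet tumour 4 0.16 and -0.13. The order was the other way in normal-diet tumour 1, at -0.11 and 0.15, and in normal-diet tumour 5, at -0.38 and 0.07. Over the 43 members, the correlation of GC content with the level relative to the normal-diet mean ran from -0.85 (normal-diet tumour 4) to 0.83 (normal-diet tumour 1), as a description across genes of one library, which are not independent. The slope of all tested genes on GC content had the same sign as that correlation in each of the 10 libraries, and ran from -0.48 log2 units in arginine-deficient tumour 3 to 0.33 in normal-diet tumour 5 per 10 percentage points of GC. The split by GC content was chosen after the values had been seen. Across members GC content and the diet log2 fold change had a correlation of -0.11, and 19 of 21 lower-GC and 20 of 22 higher-GC members were below 0. The part of GC content in the diet differences was not tested.

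**Figure D3:**
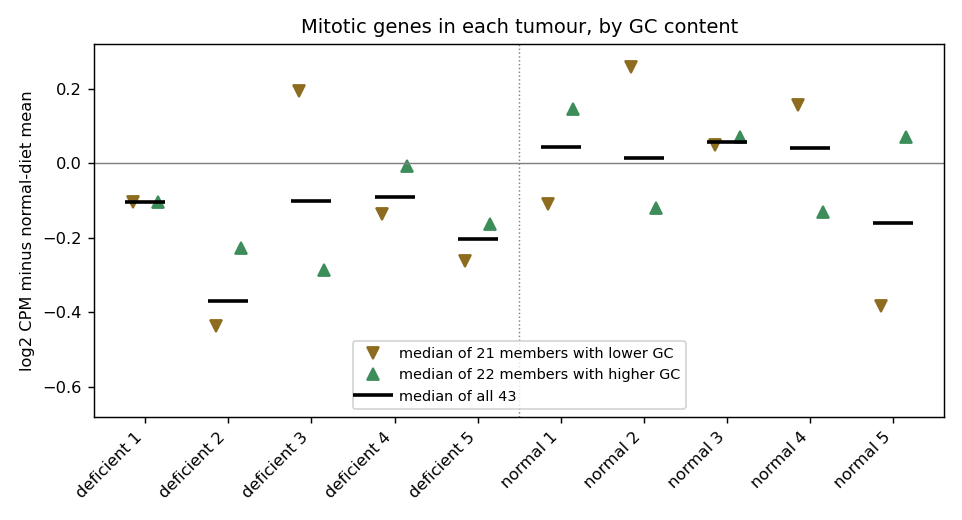
Median log2 CPM relative to the normal-diet mean in each tumour, for all 43 members, for the 21 with lower GC and for the 22 with higher GC. The lower-GC and higher-GC members part in opposite directions in arginine-deficient tumour 3 (0.19 and -0.29) and normal-diet tumour 5 (-0.38 and 0.07).

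**Figure D4:**
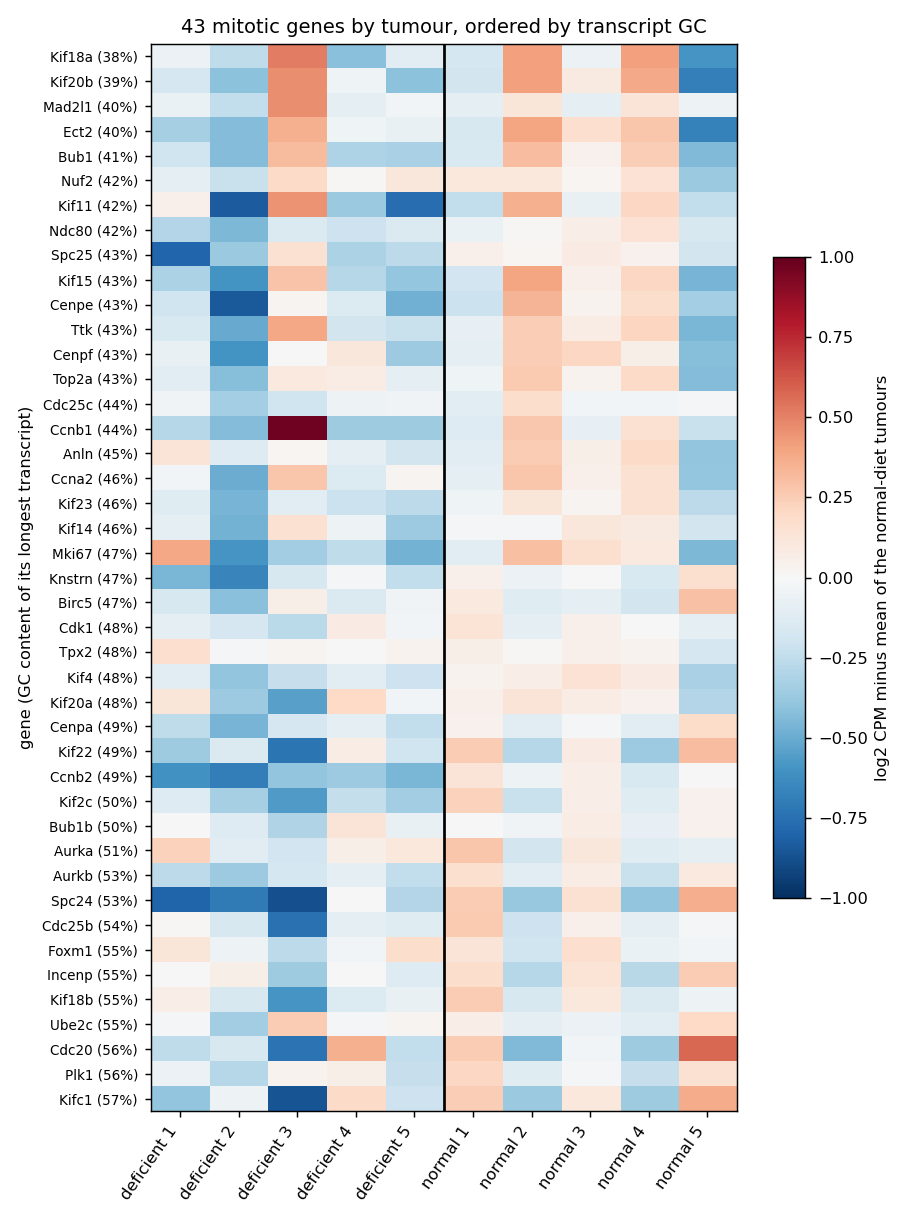
Each of the 43 members (one line per gene, ordered by GC content of the longest transcript) in each of the 10 tumours (columns), as log2 CPM minus the mean of the normal-diet tumours. Red is above and blue below that mean. Colours change from top to bottom within arginine-deficient tumour 3 and normal-diet tumours 1, 2, 4 and 5, and Ccnb2 is blue in all 5 arginine-deficient tumours.

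A further fit, chosen after the values had been seen, left out arginine-deficient tumour 3 and normal-diet tumour 5, the libraries of steepest GC slope. Normal-diet tumour 5 had the lowest member median of its diet (-0.16). Arginine-deficient tumour 3 had the most members of its diet above the normal-diet mean (21). The values of this fit are therefore no independent support. In it 37 of 43 members were below 0 and 16 had an unadjusted p under 0.05, all lower. At that level 9.01% of tested genes were lower, and 0.68% were called. There Ccnb1 had a log2 fold change of -0.42 and Ccnb2 of -0.52 (adjusted p = 0.0912 and 0.0513 by edgeR). In the fits that follow, the member counts take both directions and the shares take lower genes only. With GC and length slopes as covariates 16 members had an unadjusted p under 0.05, where 7.97% of tested genes were lower at that level. By limma voom with sample weights there were 20, where the share was 9.69%. Without arginine-deficient tumour 3 alone there were 12, where it was 5.09%. DESeq2 gave 8 such members, beside 3.23% of its genes, and the fit without the 3 libraries richest in muscle also gave 8, beside 3.55%. With a block for the replicate number, which the tumours do not bear out as a pairing, 3 members were at that level beside 2.13% of genes, or 13 beside 5.26% with GC and length slopes added, and 0 members were called with the block alone beside 0.00773%. The fits without arginine-deficient tumour 2, normal-diet tumour 1 or normal-diet tumour 3 gave 2 members each, beside 2.53%, 3.19% and 2.23% of tested genes.

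Members with and without the promoter motifs had similar medians in the diet comparison, a difference that was not tested. The 21 tested members with both CCAAT and TTTGAA had a median log2 fold change of -0.18, with 20 below 0, and the 14 with one motif or neither a median of -0.16, with 12 below 0. Of the 7 members with an unadjusted p under 0.05, Ccnb2 and Cenpa lie in the first set, Kif2c, Ndc80 and Knstrn in the second, and Spc24 and Aurkb have no window. The 8 without a window in the table had a median of -0.10.

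Genes with neighbouring roles in the cell cycle were taken from lists that do not include the members. These lists too were chosen with earlier results known, and their genes were measured in the same libraries, so they are no independent support. Over all tested genes 49.7% were below 0. At an unadjusted p under 0.05, 3.19% of tested genes were lower and 3.54% higher. Of 39 other tested mitotic regulators 33 were below 0, with a median of -0.15 and 5 at an unadjusted p under 0.05, all lower. Cdca3, which triggers destruction of mitotic inhibitors, had means of 67.6 ± 3.77 and 89.1 ± 16.4 CPM (SD, n = 5 per diet), a log2 fold change of -0.40, Ckap2, a spindle protein, 134 ± 16.1 and 170.4 ± 22.3 CPM (-0.35), and Dlgap5 had -0.25. Of 25 other kinetochore genes 22 were below 0, with a median of -0.17. Those of smallest p were Cenpm (-0.50), Ska1 (-0.26) and Cenpp (-0.44). Condensin and cohesin genes were below 0 in 14 of 18 (median -0.13, with Ncapg2 at -0.25, Ncaph at -0.15 and Ncapd3 at -0.21) and subunits of the anaphase-promoting complex in 13 of 16 (median -0.06, with Anapc13 at -0.39, Anapc4 at -0.12 and Anapc15 at -0.21). At an unadjusted p under 0.05 there were 2 lower genes in the kinetochore list and 0 in the last 2 lists. The smallest edgeR adjusted p in these 4 lists was 0.512, for Cdca3. Cenpp and Anapc15 have 67.7% and 60.6% of their exonic bases inside the bodies of other genes, so their counts are uncertain.

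Genes acting before mitosis or against it were listed separately, beside the same shares of all tested genes (49.7% below 0, 3.19% lower and 3.54% higher at an unadjusted p under 0.05). The replication and G1/S list was below 0 in 27 of 38 (median -0.06), with 0 lower and 1 higher at an unadjusted p under 0.05. That gene was Ccnd2, a D-type cyclin of early G1, at 162, 145, 153.6, 154 and 182 CPM in arginine-deficient tumours and 113.3, 121, 118, 124 and 113.0 CPM in normal-diet tumours. The diets did not overlap (log2 fold change 0.44 ± 0.09, edgeR adjusted p = 0.174), as for 1.65% of tested genes in either direction. Tyms and Mcm6 had -0.18 and -0.15. The MuvB, MYB and E2F genes were split 9 below and 8 above 0 (median -0.01; E2f4 0.18, Tfdp2 -0.21, Nfya 0.15). CDK inhibitors and p53 targets were above 0 in 12 of 17 (median 0.19), with 3 higher and 1 lower at an unadjusted p under 0.05. Gadd45a, a growth arrest gene that is also induced by amino acid shortage, had means of 39.4 ± 15.7 and 19.3 ± 6.93 CPM (SD; log2 fold change 1.03 ± 0.30, edgeR adjusted p = 0.390), Sesn2 had 0.64 and Btg2 0.58. Of the exonic bases of Gadd45a 48.7% lie inside the bodies of other genes, and of those of Ccnd2 28.7%.

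**Figure D5:**
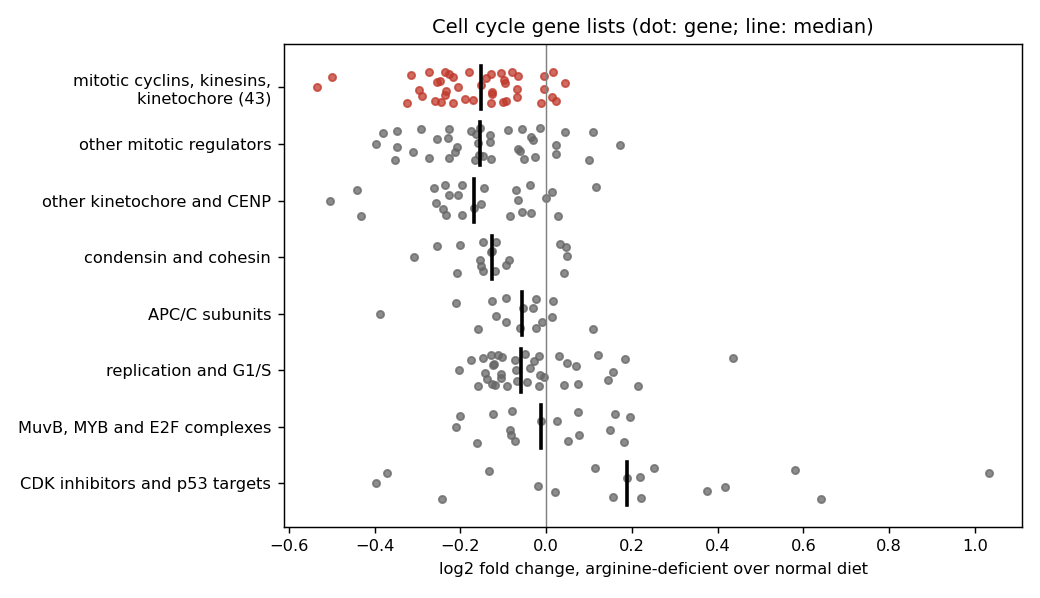
Log2 fold change of every tested gene (dots) in the 43 members and 7 other cell cycle lists, with medians as lines. Medians run from -0.17 in the other kinetochore genes to 0.19 in the CDK inhibitors and p53 targets.

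Markers of the other cells that a tumour under the skin can hold were summed in each library. Marker levels in CPM are given here without TMM scaling. Those of skeletal muscle were at 92.5, 74.9, 7719, 2286 and 98.4 CPM in arginine-deficient tumours 1 to 5. In normal-diet tumours 1 to 5 they were at 130, 94.1, 203, 820.6 and 162 CPM. Only arginine-deficient tumours 3 and 4 lay above the normal-diet range. All 15 tested muscle markers had a log2 fold change above 0, and Acta1 was listed at 0. Over all tested genes 49.7% were below 0. Without the 3 libraries richest in muscle (arginine-deficient 3 and 4 and normal-diet 4), 40 of 43 mitotic members were below 0 with a median of -0.25, and 0.139% of tested genes were called. Red blood cell markers spanned 55.9 to 106 against 104 to 612 CPM, with 4 of 4 tested lower and Alas2 listed at 0. Endothelial markers spanned 201 to 251 against 229 to 282 CPM, with 9 of 10 lower. Macrophage markers spanned 1922 to 2112 against 1535 to 2199 CPM, with 8 of 12 lower. T and NK markers spanned 64.4 to 90.2 against 30.0 to 96.6 CPM, with 8 of 11 tested higher (median log2 fold change 0.32). Fibroblast markers spanned 2408 to 4278 against 2921 to 3820 CPM, with 6 of 10 lower. Adipocyte markers spanned 31.4 to 56.5 against 44.7 to 69.0 CPM, with 5 of 5 tested lower. Neutrophil, B cell and skin keratinocyte markers were at most 81.9, 4.25 and 7.22 CPM in any tumour, with the B cell marker Ms4a1 and the keratinocyte marker Dsg3 listed at 0. The 10 epithelial markers of carcinoma spanned 91.4 to 234 against 198 to 290.3 CPM, nearly all of it Krt20, while Epcam was at most 0.49 and Krt8 at most 2.25 CPM. With muscle and mitochondrial genes removed from the table, 39 of 43 mitotic members were below 0 with a median of -0.15. There 7 members had an unadjusted p under 0.05 in either direction, beside 3.18% of tested genes lower at that level. Removing those genes leaves the members' counts unchanged and alters only the scaling and the estimates of spread. The part of the other cell types in the mitotic values was not tested.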

How the data were processed

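The authors deposited 1 table of raw counts per gene for the 10 tumours. Per the submitters' processing notes, FastQC, STAR and featureCounts were used with mm10. For versions and strand setting, nothing is given in the sources used here. Libraries titled Arg were taken as the arginine-deficient diet and those titled Control as the normal diet, from the design text. Nothing states that tumours came from separate litters or cages, so p-values measure the spread between these tumours.

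Gene names and coordinates came from GENCODE M21 on mm10, and 21816 of 21849 identifiers matched. Counts were normalised by TMM and filtered by expression (at least 10 counts in enough libraries, at least 15 in all), which left 12929 genes with 99.9% of all counts. The diet was tested with edgeR 4.0.16 (quasi-likelihood F test, R 4.3.3) with Benjamini-Hochberg adjustment over all tested genes. The common biological coefficient of variation was 26.5%. On simulated data for this comparison of 12929 genes, calls reached 9.62% of the genes given a 1.5-fold change, 66.0% at 2-fold and 98.5% at 4-fold. Alternatives used DESeq2 1.42.0, limma 3.58.1 with voom sample weights, other scalings and filters, GC and length slopes, a replicate block and left-out libraries. Ratios of 2 genes were compared by exact permutation over all assignments of the diets. No 2 libraries were alike within sampling noise (lowest chi-square per degree of freedom 16.7).

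The members and gene lists were chosen with earlier results of these data known. Values per tumour were given for members with an unadjusted p under 0.05 and for a fixed set of well-known members, the extremes of each role group were named, and up to 3 genes of smallest p were named from each other list. The adjusted p of each of these came from the fit over all genes.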

Additional observations from a re-analysis of the deposited data

Results flagged for a closer look

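In 8 of 86 groups of 5 tumours, 1 for each member and diet, a tumour stood apart from the other 4 by more than Dixon's 95% limit, where chance gives about 1 in 20. In arginine-deficient tumour 3, Ccnb1 was at 168 CPM against 63.1 to 70.2 CPM in the other 4, and the phosphatase gene Cdc25b was at 110.9 CPM against 166 to 187 CPM. In normal-diet tumour 5, 5 members were low. The kinetochore genes Nuf2 and Spc25 were at 74.6 CPM against 98.0 to 107 CPM and at 73.3 CPM against 84.1 to 87.9 CPM. The kinesin genes Kif4 and Kif20a were at 100.3 CPM against 128 to 139 CPM and at 169.6 CPM against 214 to 228 CPM, and Tpx2 was at 242 CPM against 273 to 283 CPM. Tpx2 was also high in arginine-deficient tumour 1, at 304 CPM against 269 to 278 CPM. Arginine-deficient tumour 3 and normal-diet tumour 5 were the libraries with the steepest GC slopes (-0.48 and 0.33), and the part of that slope in these values was not tested.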

How the results depend on the processing

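Over all genes 7 were called by edgeR, against 127 by DESeq2, 373 by limma voom with sample weights, 68 with GC and length slopes, 88 without the 2 libraries of steepest GC slope, 18 without the 3 libraries richest in muscle and 0 to 16 without single libraries (0 without normal-diet tumour 1 or 3, 16 without arginine-deficient tumour 3). Replicate numbers did not pair the tumours consistently. Correlations ran from -0.35 to 0.18, with 3 of 5 pairs over 0.1, and 1 of the 5 arginine-deficient libraries was closest to its own number. A replicate block gave 1 call, alone or with GC and length slopes. Members called numbered 1 by DESeq2, 2 by voom and 1 with GC and length slopes, and 0 otherwise, single libraries left out included (0 to 0). Members at an unadjusted p under 0.05 numbered 7, against 20 by voom, 16 with GC and length slopes, 16 without the 2 steepest libraries, 3 with the replicate block, 13 with the block and slopes, and 2 to 12 without single libraries (2 without arginine-deficient tumour 2 or normal-diet tumour 1 or 3, 12 without arginine-deficient tumour 3), where 3.19% of all tested genes were lower at that level in the fit of all libraries, 9.69%, 7.97%, 9.01%, 2.13% and 5.26% in the next 5 fits, and 2.53%, 3.19%, 2.23% and 5.09% without those 4 libraries in turn. Those member counts take both directions, and the shares take lower genes only. The members' median stayed below 0 in every fit, at -0.25 without the muscle-rich libraries and -0.20 to -0.09 without single ones. The Ccnb2 to Cdk1 ratio missed the adjusted threshold without normal-diet tumour 1, 2, 3 or 5 (-0.41 to -0.38), and it ran from -0.48 to -0.38 without any single library. It was -0.52 without the muscle-rich libraries (exact p = 0.0286, adjusted p = 0.0857) and -0.41 with the replicate block (exact p = 0.0625, adjusted p = 0.188). Each of these exact p-values is the smallest its design allows, so neither bears on the ratio's stability.

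Some members changed sign. With upper-quartile factors Aurka was at -0.0077, Mad2l1 at -0.000416 and Ccnb1 at -0.0092. By voom Tpx2 was at -0.000213, Mad2l1 at -0.042 and Ccnb1 at -0.29. Without the muscle-rich libraries Mad2l1 was at -0.078, Foxm1 at 0.067 and Ccnb1 at -0.33. With GC and length slopes Nuf2 was at 0.0035, Foxm1 at 0.0017 and Ccnb1 at -0.10. With the replicate block Ccnb1 was at -0.10, and with block and slopes Nuf2 was at 0.0029, Mad2l1 at -0.000104, Foxm1 at 0.0036 and Ccnb1 at -0.11. Without the 2 steepest libraries, a choice made after seeing the data, Bub1b was at 0.00068, Cdc20 at 0.066, Mad2l1 at -0.12, Foxm1 at 0.049, Ccnb1 at -0.42 and Incenp at 0.035. Without single libraries the ranges were -0.15 to 0.00055 for Anln, -0.043 to 0.093 for Aurka, -0.16 to 0.023 for Ccna2, -0.36 to 0.10 for Ccnb1, -0.056 to 0.057 for Foxm1, -0.25 to 0.028 for Kif18a, -0.11 to 0.080 for Mad2l1, -0.088 to 0.043 for Nuf2 and -0.082 to 0.059 for Ube2c. The cause of these changes was not tested. By simulation, a 1.5-fold change was recovered for 9.62% of genes picked at random above a low floor of expression, at this depth and spread. Most changes of that size in such genes would be missed. Each gene was drawn independently, and the rate for the members alone was not simulated.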
